A study of Homo sapiens with 2 samples.

Results

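The 10 genes described here encode matrix metalloproteinases that lie outside the metalloproteinase cluster of chromosome 11q22: MMP2, MMP9, MMP11, MMP14, MMP15, MMP16, MMP17, MMP19, MMP24 and MMP28. They were taken by name, matched through Ensembl identifiers to GENCODE 29 symbols, and all 10 were among the 60774 genes of the table. Their transcripts were measured by RNA-seq in MDA-MB-231, an established line of human breast cancer cells that lack hormone receptors and ERBB2 amplification, with 1 library from cells given a vector control (the control library) and 1 from cells labelled as over-expressing YWHAB, the gene of the 14-3-3 beta adaptor protein. Both libraries come from the same line. The promoter of the construct, whether the cells were a clone or a pool, and the time after its introduction were not stated. The labels' protocol text also speaks of fat cell induction and of retinas, which was not taken as fact about these cells.

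Matrix metalloproteinases are zinc-dependent endopeptidases that are made as inactive proenzymes and cut matrix proteins and cell surface proteins once their prodomain is removed. The gelatinases MMP2 and MMP9 cut denatured collagen and the collagen of basement membranes. The membrane-type enzymes MMP14, MMP15, MMP16 and MMP24 span the plasma membrane, and MMP17 is held there by a lipid anchor. MMP14 cuts fibrillar collagen around invading cells and, with the inhibitor TIMP2 as a bridge, activates the proenzyme of MMP2. MMP11, MMP19 and MMP28 are secreted enzymes, and MMP11 and MMP28 are activated by furin-like convertases inside the cell.

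The control library held 12375999 fragments and the YWHAB library 13810668. YWHAB itself was at 239 FPKM (control) and 336 FPKM (YWHAB), which is 1.41 times as high (95% counting interval 1.36 to 1.45). Its difference in log2(FPKM + 1) was 0.49, short of the 1 required by the 2-fold rule used later. Intervals lay above equal levels for 27.8% of all genes compared, so this one does not by itself show over-expression. Among 7 measured 14-3-3 genes, YWHAB included, 6 had intervals above equal levels and 1 below, and YWHAB had the largest difference. FPKM is the number of fragments per kilobase of the length assigned to a gene, scaled to the library total. Comparisons between genes therefore depend on the assigned lengths. Those between libraries depend on scale, since the FPKM of all genes summed to 711623 in the control library and 691738 in the YWHAB library. The genes known to be high in this line were high in both libraries, with CD44 at 697 and 998 FPKM and AXL at 453 and 668 FPKM. Of 9 luminal and epithelial genes listed as low in this line, 5 reached a mean of 1 FPKM, against that expectation. The list summed to 937 and 1131 FPKM. Most of this came from the keratins KRT8, at 651 and 751 FPKM, and KRT18, at 249 and 325 FPKM. ERBB2 was at 32.8 and 49.97 FPKM and GATA3 at 3.14 and 3.86 FPKM, while the epithelial cadherin CDH1 had 3 and 0 fragments and the estrogen receptor ESR1 had 7 and 1. With 1 library per group no difference can be set against replicate spread and no test was possible, so the differences below hold for these 2 libraries only, not for the conditions as such.

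The table of RefSeq promoters held 4 of the 10 genes, MMP11, MMP14, MMP15 and MMP24. It had no entry for MMP2, MMP9, MMP16, MMP17, MMP19 and MMP28. The promoters of the 3 that reached a mean of 1 FPKM are printed, for genes ranging from the most abundant member to a scarce one. Each runs 5′ to 3′ from 250 bases before to 50 bases after the RefSeq start, on the plus strand of GRCh38.p14. Capitals mark the GC box GGGCGG on either strand, the kind of element bound by SP1-type factors. The windows are chr14:22836335-22836634 for MMP14, chr16:58025504-58025803 for MMP15 and chr22:23772599-23772898 for MMP11.
MMP14: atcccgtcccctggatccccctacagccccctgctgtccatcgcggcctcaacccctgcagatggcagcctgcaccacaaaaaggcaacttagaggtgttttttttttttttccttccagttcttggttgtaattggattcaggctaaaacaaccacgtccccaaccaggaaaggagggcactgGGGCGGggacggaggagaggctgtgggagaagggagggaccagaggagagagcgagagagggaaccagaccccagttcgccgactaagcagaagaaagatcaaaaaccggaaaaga
MMP15: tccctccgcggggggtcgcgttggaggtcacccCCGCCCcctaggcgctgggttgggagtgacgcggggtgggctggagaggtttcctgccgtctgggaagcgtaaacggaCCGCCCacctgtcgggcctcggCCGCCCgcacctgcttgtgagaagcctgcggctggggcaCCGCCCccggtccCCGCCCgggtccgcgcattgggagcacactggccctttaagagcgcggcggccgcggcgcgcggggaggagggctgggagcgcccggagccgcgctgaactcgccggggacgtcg
MMP11: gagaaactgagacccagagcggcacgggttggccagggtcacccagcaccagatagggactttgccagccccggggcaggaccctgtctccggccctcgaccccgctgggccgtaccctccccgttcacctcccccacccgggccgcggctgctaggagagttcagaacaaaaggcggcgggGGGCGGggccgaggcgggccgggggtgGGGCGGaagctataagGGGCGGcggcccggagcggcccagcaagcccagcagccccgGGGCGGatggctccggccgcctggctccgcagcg
The MMP14 window held 1 GC box, that of MMP15 5 and that of MMP11 4, and the MMP24 window held 3. A GC box is in 45.0% of the 35116 promoters of the same length in that table. Neither the AP-1 letters TGANTCA nor the TATA box letters TATAAA were found on either strand of the 4 windows. They are in 7.71% and 11.5% of all promoters, so their absence from 4 windows is near those shares. GC content was 55.0% in the MMP14 window and 74.3%, 75.3% and 80.0% in those of MMP11, MMP15 and MMP24. Whether GC boxes bear on the levels of these genes was not tested.

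MMP14 made up nearly all of the transcript of these genes in both libraries, and its level differed little between them. It was at 1889 FPKM in the control library (29496 fragments) and at 1789 FPKM in the YWHAB library (31172 fragments). In level it ranked 31 and 27 among all genes of the table. Its difference, taken as the YWHAB value minus the control value of log2(FPKM + 1), was -0.08, and the ratio was 0.947 (95% counting interval 0.932 to 0.962). The narrow interval reflects the number of fragments, and a library-wide shift of scale moves a value of this size: the difference was -0.12 when genes at or above 10 FPKM in both libraries were centred on a median ratio of 1, and -0.04 with equal totals. MMP14 took 97.8% of the summed FPKM of the 10 genes in the control library and 98.7% in the YWHAB library. The other members together summed to 41.6 FPKM and 22.7 FPKM. The gene (ENSG00000157227) spans bases 22836557 to 22849027 of chromosome 14 (GRCh38, plus strand), and no other annotated gene shares its exon bases.

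**Figure D1:**
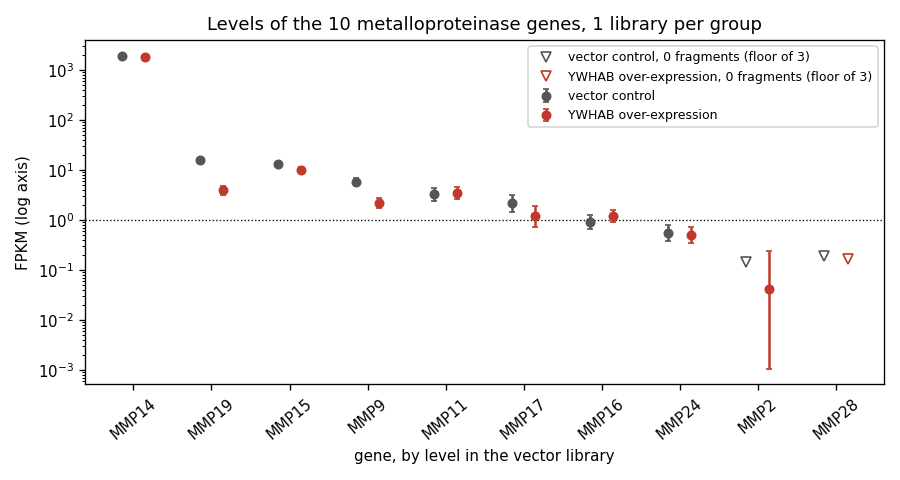
FPKM on a log axis for the 10 genes in the control library (grey) and the YWHAB library (red), ordered by level in the control library. Bars are 95% counting intervals, open triangles mark the limit that 0 fragments allows, and the dotted line is 1 FPKM. MMP14 stands at 1889 and 1789 FPKM, with every other gene below 16 FPKM, and the pairs of MMP19 and MMP9 are separated.

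Of the 7 members whose mean reached 1 FPKM, 2 were lower by the 2-fold rule and 0 were higher. The rule asks for a difference of at least 1 in log2(FPKM + 1), and over all 13420 genes compared it called 1.97% lower and 0.686% higher, or 2.66% in either direction. The lower members were MMP19 and MMP9. The median difference of the 7 was -0.33, against 0.03 over all genes compared. MMP24, MMP2 and MMP28 stayed below a mean of 1 FPKM and were not compared.

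MMP19, a secreted enzyme that cuts basement membrane proteins and the growth factor binding protein IGFBP3, showed the larger difference. It was at 15.9 FPKM in the control library and 3.90 FPKM in the YWHAB library, from 358 and 98 fragments. The difference was -1.79 and the ratio 0.245 (counting interval 0.194 to 0.308), which placed it 59th from the lowest of the 13420 genes. MMP19 was thus the most abundant member after MMP14 in the control library, where its interval overlapped that of MMP15, while in the YWHAB library it ranked below MMP15. Its exons (ENSG00000123342, chromosome 12, 55835433 to 55842966, minus strand) share 17.4% of their bases with TMEM198B on the opposite strand, which was at 6.15 and 4.27 FPKM. Whether counting used strand was not stated, so the fragments of this pair cannot be told apart. Within 500 kb of MMP19 the median difference of the 31 measured protein-coding genes was -0.02. Of these 31 genes 3 were lower and 0 higher, against 1.97% and 0.686% of all genes compared. The 3 were IL23A, a cytokine subunit, at 5.17 and 1.22 FPKM, ITGA7, an integrin chain, at 3.74 and 1.04 FPKM, and PMEL, a melanosome protein, at 6.71 and 2.32 FPKM.

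MMP9, gelatinase B, was at 5.81 FPKM in the control library and 2.20 FPKM in the YWHAB library. This rests on 168 and 71 fragments, a ratio of 0.379 (counting interval 0.283 to 0.503) and a difference of -1.09, rank 220 from the lowest. MMP9 lay close to the limit of the rule, and the interval of its ratio reached just above 0.5. The gene (ENSG00000100985) spans bases 46008908 to 46016561 of chromosome 20 (plus strand), 1.10 Mb beyond the end of YWHAB. Of its 18 measured protein-coding neighbours within 500 kb 0 passed the rule in either direction. For so few genes this is near the 2.66% of all genes compared. The neighbours had a median difference of 0.01 and a range of -0.56 to 0.95. Its exons share 18.4% of their bases with SLC12A5-AS1 on the opposite strand, which was at 0.0660 and 0.0592 FPKM.

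The share of lower genes differed with level. Of the genes with a mean of 2 to 5 FPKM, where MMP9 lies, 4.07% were lower, and of those with a mean of 5 to 10 FPKM, where MMP19 lies, 2.12% were lower. By the distance in log2(FPKM + 1) over both libraries, the protein-coding genes most like MMP19 were HSPB8, a small heat shock protein, at 15.7 and 3.86 FPKM, and AKR1C1, a steroid-reducing enzyme, at 15.8 and 4.09 FPKM. The one most like MMP9 was ACAP1, a regulator of ARF proteins, at 5.52 and 2.10 FPKM. Likeness over 2 libraries is no more than a similar pair of values.

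**Figure D2:**
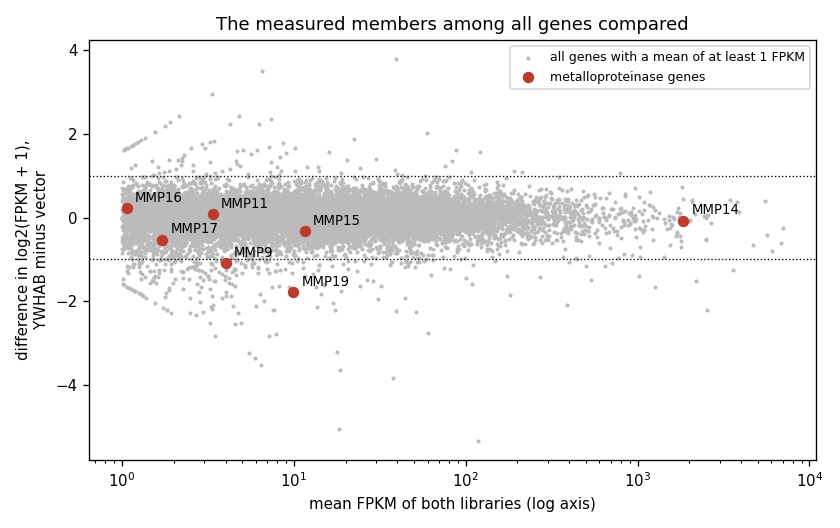
Difference in log2(FPKM + 1), YWHAB minus vector, against the mean FPKM of both libraries on a log axis, for the 13420 genes compared (grey) and the 7 measured metalloproteinase genes (red). Dotted lines mark the 2-fold rule. MMP19 and MMP9 lie below the lower line, and MMP14 lies near 0 among the most abundant genes.

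The other membrane-type enzymes were far less abundant than MMP14, and none passed the 2-fold rule. MMP15, which like MMP14 can activate the MMP2 proenzyme, was at 12.97 FPKM in the control library and 10.1 FPKM in the YWHAB library (354 and 308 fragments). Its ratio was 0.780 (counting interval 0.667 to 0.911) and its difference -0.33. MMP17, the lipid-anchored enzyme, was at 2.21 and 1.23 FPKM from 29 and 18 fragments, and the interval of its ratio, 0.291 to 1.04, included equal levels. MMP16 was at 0.909 and 1.22 FPKM from 40 and 60 fragments, with an interval of 0.886 to 2.06. At this depth neither a difference of MMP17 nor one of MMP16 was detectable beyond counting error. Their intervals also leave room for values past 2-fold, so similar levels are not shown either. MMP24, an enzyme best known from the nervous system, was at 0.554 and 0.513 FPKM. Its exons share 18.1% of their bases with MMP24OS on the opposite strand, a gene at 80.4 and 68.8 FPKM, so without strand the 30 and 31 fragments of MMP24 and those of that neighbour cannot be told apart.

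The genes of these enzymes are dispersed over the genome. MMP15 (ENSG00000102996) spans bases 58025566 to 58046901 of chromosome 16 (plus strand), and MMP17 (ENSG00000198598) bases 131828393 to 131851783 of chromosome 12 (plus strand). MMP16 (ENSG00000156103) spans bases 88032009 to 88328025 of chromosome 8 (minus strand), and MMP24 (ENSG00000125966) bases 35226654 to 35277000 of chromosome 20 (plus strand).

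Among the remaining secreted enzymes, MMP11 was low in both libraries, and MMP2 and MMP28 were at or next to 0. MMP11, stromelysin-3, was at 3.27 FPKM in the control library and 3.49 FPKM in the YWHAB library from 47 and 56 fragments, a ratio of 1.07 (counting interval 0.712 to 1.61). The gene (ENSG00000099953, chromosome 22, 23768226 to 23784316, plus strand) shares 4.21% of its exon bases with CHCHD10 on the opposite strand, at 8.38 and 7.51 FPKM. MMP2, gelatinase A, had 0 fragments in the control library and 1 in the YWHAB library. With 0 fragments counted, up to 3 remain possible, which for MMP2 is 0.142 FPKM in the control library. MMP28, epilysin, had 0 fragments in both, with floors of 0.187 FPKM and 0.167 FPKM and intervals up to 0.230 and 0.206 FPKM. MMP2 (ENSG00000087245) spans bases 55389700 to 55506691 of chromosome 16 (plus strand) and MMP28 (ENSG00000271447) bases 35756249 to 35795707 of chromosome 17 (minus strand). Of the 2 gelatinases, MMP9 was therefore the one that reached a mean of 1 FPKM, while MMP2, whose proenzyme MMP14 is best known to activate, had 1 fragment over both libraries. The 5 other dispersed members of the family, MMP21, MMP23A, MMP23B, MMP25 and MMP26, had at most 5 fragments in either library.

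**Figure D3:**
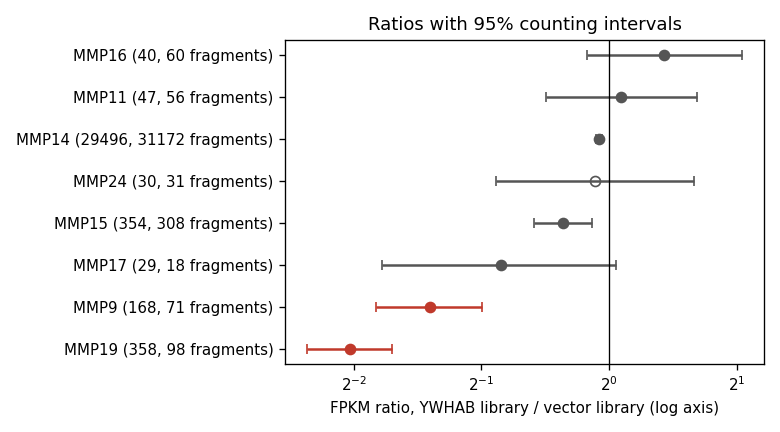
FPKM ratio of the YWHAB library to the control library on a log axis for the 8 members with fragments in both libraries, with 95% counting intervals and the fragments of each library. Red marks the genes past the 2-fold rule and the open circle a gene below a mean of 1 FPKM. The intervals of MMP19, MMP9, MMP15 and MMP14 lie below 1, while those of MMP17, MMP24, MMP11 and MMP16 include it.

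The counting interval lay below equal levels for 4 of the 7 measured members and above for 0. Over all genes compared it lay below for 21.8% and above for 27.8%, so an interval that leaves out equal levels is common between these libraries. In the control library MMP14 was followed by MMP19, MMP15, MMP9, MMP11, MMP17, MMP16 and MMP24. The intervals of the levels overlapped there between MMP19 and MMP15, between MMP11 and MMP17, and between MMP16 and MMP24. In the YWHAB library the order was MMP14, MMP15, MMP19, MMP11, MMP9, MMP17, MMP16 and MMP24. Neighbours from MMP19 down to MMP16 overlapped there.

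The metalloproteinase genes of the 11q22 cluster give the scale of these differences. All 4 measured genes of the cluster were lower by the rule, against 1.97% of all genes compared. Their median difference was -2.23. MMP1, which encodes a collagenase, stood at 4158 FPKM in the control library and 894 FPKM in the YWHAB library. Level for level, MMP14 stood at 0.454 times MMP1 in the control library (counting interval 0.448 to 0.460) and at 2.001 times MMP1 in the YWHAB library (1.97 to 2.03). By FPKM, MMP14 was thus the highest metalloproteinase gene in the YWHAB library, and MMP1 in the control library. In the YWHAB library 31172 fragments were worked out for MMP14, with its length taken as 1262 bases, and 24331 for MMP1. The number for MMP14 would be lower with 631 bases, the smallest length that gives whole counts. The order by FPKM depends on the length assigned to each gene. The counting intervals do not cover these choices of length. MMP14 stood at 119 times MMP19 in the control library (107 to 132) and 458 times in the YWHAB library (376 to 565).

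Genes that act on metalloproteinases were then described from lists by role. The rule called 1.97% of all genes compared lower and 0.686% higher, so 0 called genes in a list this short is near that share. Of 7 measured inhibitor genes 1 was lower and 0 higher, with a median of -0.33. TIMP2, the partner of MMP14 in activating MMP2, was at 189 and 179.9 FPKM, and MMP14 stood at 10.01 times TIMP2 in the control library (9.76 to 10.3) and 9.94 times in the YWHAB library (9.70 to 10.2). The intervals of these ratios overlapped. TIMP1, which binds the MMP9 proenzyme and inhibits MMP14 poorly, was at 1289 and 786 FPKM, and MMP14 stood at 1.46 and 2.28 times its level. TIMP3, an inhibitor bound to the matrix, was at 38.5 and 65.7 FPKM, and MMP14 stood at 49.1 and 27.2 times its level. RECK, a membrane-anchored inhibitor of MMP2, MMP9 and MMP14, was at 12.03 and 9.10 FPKM. The 1 lower gene was TFPI2, a Kunitz-type inhibitor, at 630 and 149 FPKM, and THBS1, a matrix protein that binds gelatinases, was at 236 and 465 FPKM.

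None of 9 measured genes that activate proenzymes passed the rule, and the median was -0.18. FURIN, the convertase that activates MMP11 and MMP14, was at 72.01 and 93.9 FPKM, and the urokinase gene PLAU at 403 and 363 FPKM. The cathepsin gene CTSL was at 201 and 109.97 FPKM, CTSB at 1456 and 1003, the plasminogen activator PLAT at 533 and 404, and the trypsin gene PRSS3 at 34.8 and 23.5. Plasminogen itself (PLG) was listed at 0 in both libraries.

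Of 14 measured surface partners and inducers 2 were lower and 0 higher, against 1.97% and 0.686% of all genes compared. The median was -0.18. LCN2, the lipocalin that forms a complex with MMP9 and protects it from breakdown, was at 70.8 and 18.1 FPKM, a ratio of 0.255 (counting interval 0.214 to 0.303). It was lower by the rule, as were 265 of the 13420 genes compared, MMP9 among them. A link between the 2 genes was not tested. CLDN1, a claudin that can recruit membrane-type enzymes, was at 19.0 and 6.91 FPKM. The integrin chain ITGB3 was at 6.11 and 2.61 FPKM, and the caveolin gene CAV1 at 94.2 and 161. BSG, the metalloproteinase inducer basigin, was at 993 and 942 FPKM.

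The machinery that brings MMP14 to invadopodia, the matrix-degrading protrusions of invading cells, had 0 of 21 measured genes past the rule. This is near the 2.66% of all genes compared, and the median was 0.04. The scaffold gene SH3PXD2A was at 16.3 and 21.4 FPKM, the kinase SRC at 44.0 and 34.6, RAB7A at 339.9 and 256 and the motor KIF5B at 85.6 and 104. CTTN, the cortactin gene, was at 382 and 419 FPKM.

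Of 20 measured substrate genes 2 were higher and 0 lower, against 0.686% and 1.97% of all genes compared. The median was 0.04. The higher genes were COL6A3, a collagen chain cut by MMP11, at 4.27 and 10.3 FPKM, and the laminin chain LAMA5 at 135 and 289. IGFBP3, the substrate of MMP19 named above, was at 42.3 and 23.3 FPKM, and SPARC, a matrix glycoprotein, at 9.56 and 5.02. The basement membrane collagen gene COL4A1 was at 58.7 and 80.8 FPKM.

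The 25 measured transcription factor genes known to act on metalloproteinase promoters had a median of -0.06. Of these 1 was higher and 0 lower, against 0.686% and 1.97% of all genes compared. The higher one was FOS, an AP-1 subunit, at 23.1 and 96.4 FPKM. FOSL1, the most abundant of the list, was at 616 and 577 FPKM, JUND at 16.4 and 9.92, and ELF3 at 1.60 and 0.575.

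**Figure D4:**
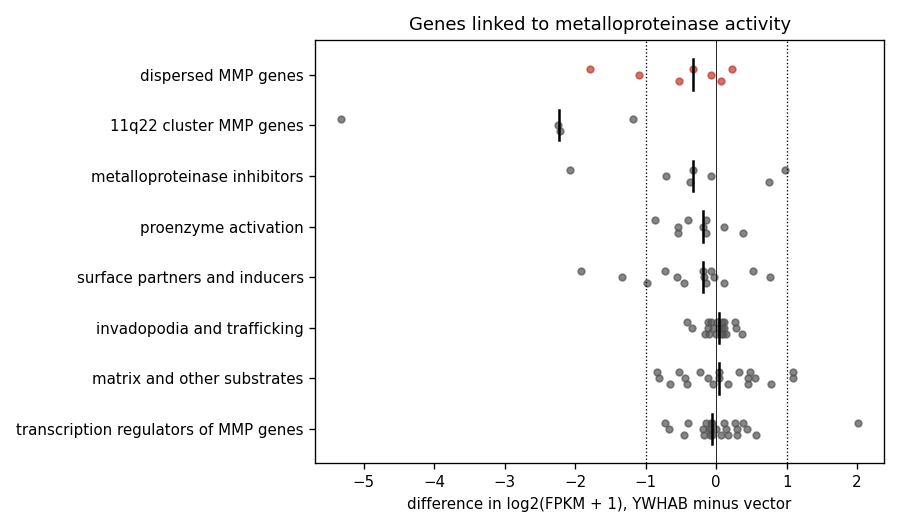
Difference in log2(FPKM + 1), YWHAB minus vector, of each measured gene in the lists by role, with the median of each list as a black bar and the 2-fold rule as dotted lines. Members of the dispersed group are red, and 2 of 7 lie past the lower line, against 4 of 4 genes of the 11q22 cluster. Most genes of the other lists lie between the lines.

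Other cell types that make these enzymes were checked by their markers. Of 10 leukocyte markers 1 had a mean of at least 1 FPKM, and the list summed to 5.99 FPKM in the control library and 3.58 FPKM in the YWHAB library. PTPRC, which marks all leukocytes, had 1 and 0 fragments, CD68, MPO and CD3E were listed at 0 in both, and ITGAX was at 1.42 and 0.272 FPKM. Leukocytes express MMP9 and MMP19. The 1 marker measured was CD14, at 2.71 and 2.06 FPKM. ITGAX had 42 fragments in the control library and 9 in the YWHAB library. Fibroblast markers summed to 38.6 and 33.2 FPKM, of which COL1A1 gave 27.3 and 19.8 and PDGFRB 10.04 and 12.7. DCN and LUM had 5 fragments each in the control library and 0 in the YWHAB library. Endothelial markers summed to 20.1 and 19.7 FPKM, most of it from PECAM1 at 15.6 and 15.9 FPKM, with KDR at 2.53 and 1.61 and CDH5 at 0.676 and 1.55. No adipocyte or retina marker exceeded 0.937 FPKM in either library. The part of other cell types in the differences of MMP9 and MMP19 was not tested.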

How the data were processed

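RNA-seq values of 2 libraries were used, 1 per group, grouped by the labels' cell type entry. Per the labels, the authors deposited FPKM values for 60774 Ensembl genes. HISAT2 2.0.5 and the build hg38 are named in the submitters' processing notes. For the counter, annotation release, strand setting and treatment of multiply mapped reads nothing was stated. Differences between libraries may include differences in any of these steps or in library preparation.

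Fragments were worked out from the steps of FPKM times gene length: for 26768 of 26770 genes above 0 both values were whole counts over one whole length (relative tolerance 1e-12). For 14.1% of these, MMP14, MMP15 and MMP16 among them, the length is the multiple nearest the GENCODE 29 mean transcript length, so fragment numbers and interval widths depend on that choice. Ratios do not. The 95% intervals (Clopper-Pearson for ratios, exact Poisson for levels) and floors of 3 fragments cover counting error only, since PCR copies are not independent. For a 1 kb gene the floor was 0.242 FPKM (control library) and 0.217 FPKM (YWHAB library). The recovery was tested on simulated data with a guide length close to the true one, so that test could not judge the choice of multiple.

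Genes whose mean reached 1 FPKM were compared by log2(FPKM + 1), which shrinks the differences of low genes, and called by a difference of at least 1. Symbols and coordinates came from GENCODE 29, which held 96.3% of identifiers, on GRCh38, the assembly hg38 denotes. Promoters came from RefSeq on GRCh38.p14. Named genes were the members, YWHAB, the 4 measured genes of each list with the largest absolute difference, and the 2 nearest in level to each called member, apart from genes not reported here. Any other gene was named after its values were seen, as was the 500 kb window chosen. The members and lists were chosen with earlier results of these data known. Alternatives were no filter, a filter at a mean of 5 FPKM, a pseudocount of 0.1, equal totals, the median ratio set to 0, and removal of the trend with length and GC content. Python 3.11.15, numpy 2.4.6, pandas 2.3.3 and scipy 1.17.1 were used.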

Additional observations from a re-analysis of the deposited data

How the results depend on the processing

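The calls of MMP9 and MMP19 were kept under each of the 6 alternatives, except that MMP9, with a mean of 4.01 FPKM, was not compared when a mean of at least 5 FPKM was asked for. That alternative left 1 of 3 measured members lower. The difference of MMP9 ranged from -1.36 with a pseudocount of 0.1 to -1.09, and that of MMP19 from -2.00 to -1.79. No member passed the rule upward under any of them, and no called value changed sign. MMP14 moved beyond its counting interval to -0.12 with the median ratio set to 0 and to -0.04 with equal totals. Over all genes, a pseudocount of 0.1 gave 471 lower and 222 higher genes against 265 and 92, a mean of at least 5 FPKM gave 112 and 40, no filter gave 155 higher, and equal totals gave 173 higher. Depth limits MMP2 and MMP28 most, with 0 or 1 fragments per library, and then MMP17, MMP16, MMP11 and MMP24, with 18 to 60. No paired analysis was possible because each group has 1 library.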
